A study of Mus musculus with 93 samples.

Results

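The neural retina of Efemp1ki/ki mice was compared at 9 and at 3 months of age. The comparison took every retina library whose label gives that genotype and 1 of those ages, 8 libraries at 9 months and 8 at 3 months, which makes 16 of the 93 libraries in the series and 16 of its 48 retina libraries. All mice were labelled female and untreated, and Efemp1ki/ki stands for a homozygous knock-in of Efemp1, made to model the human disorder Doyne honeycomb retinal dystrophy. The reference for the same step in age was the neural retina of wild-type mice (Efemp1+/+, labelled Wt), with 8 libraries at 3 months and 8 at 9 months, and the next step in the knock-in was read from its 8 libraries at 17 months. Whether 1 library stands for 1 mouse, and whether mice were pooled, was not in the labels, and all p-values are relative to the spread among libraries, which may be partly technical. Each group of libraries also had a sample code of its own (14 at 3 months and 12 at 9 months in the knock-in, 13 and 11 in wild type), so anything that was shared by the libraries of 1 code cannot be told apart from age. The change with age was asked for in the knock-in first, then set beside that of wild type.

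Efemp1 encodes fibulin-3, a secreted glycoprotein of the extracellular matrix that is made by the retinal pigment epithelium and by several other ocular cell types. A mutation of this gene in people causes deposits between the pigment epithelium and Bruch's membrane, which resemble the drusen of age-related macular degeneration, and complement has been studied as part of that process. In the retina itself, microglia make C1q and patrol the synaptic layers, and Müller glia span the tissue and make other complement components. Interferons and their downstream factors raise the genes of antigen presentation and of antiviral defence, whereas the immediate early genes are switched on within minutes by neuronal activity or light and fade again.

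The libraries held 9218127 to 26536277 estimated counts at 3 months and 12878539 to 20778921 at 9 months. Gnat1, the transducin subunit gene of rods, measured 10800 to 13100 CPM (counts scaled to library size with TMM factors) at 3 months and 10600 to 11500 at 9 months, so all 16 libraries carried a defining transcript of the outer retina. The cone, bipolar, amacrine, ganglion and Müller cell markers were likewise above 0 in every library. Traces of neighbouring tissue were present and uneven. The 15 lens crystallin genes together reached 928 CPM in the 3-month library 8 and 1284 CPM in the 9-month library 6, against 2.55 to 132 CPM in the other 14. The 18 pigment epithelium genes summed to 129 to 237 CPM at 3 months and 132 to 408 CPM at 9 months, with library 8 (408 CPM) and library 3 (351 CPM) above every 3-month library. The 3-month library 5 stood apart in its trend with GC content. Every pair of libraries within a group differed by more than sampling noise, with a chi-square of at least 2.20 for each degree of freedom.

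Efemp1 itself (ENSMUSG00000020467.15, chromosome 11, 28853204 to 28926743 in GRCm38) was not called between the ages. It measured 48.2–71.2 CPM (median 59.9) at 3 months and 48.9–76.9 CPM (median 66.7) at 9 months (log2 fold change 0.12 ± 0.09, adjusted p = 0.431 by edgeR's quasi-likelihood test). The knock-in changes the sequence of the gene, so its level is no check of the genotype label. Cfb (ENSMUSG00000090231.10, chromosome 17, 34856374 to 34862518), which encodes complement factor B of the alternative pathway, measured 6.55–8.96 CPM (median 7.16) at 3 months and 7.30–8.77 CPM (median 8.07) at 9 months and did not pass (log2 fold change 0.12 ± 0.08, adjusted p = 0.401).

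Between 3 and 9 months 1464 of 17240 tested genes changed in the knock-in retina (8.49%, Benjamini-Hochberg adjusted p under 0.05), 882 of them higher (5.12%) and 582 lower (3.38%) at 9 months. Most steps were small. The median log2 fold change was 0.31 among the risers and -0.20 among the fallers, and 45 genes rose and 7 fell by at least 1 on the log2 scale. Interferon-induced, antigen presentation and complement genes were called higher, and immediate early, ganglion cell and cholesterol genes lower, in larger shares than all tested genes, as the plot of calls by gene list shows. The lists had been chosen with earlier results of these data known, so these shares are descriptions and not tests. The median transcript length was 3451 bases among the risers, 4565 among the fallers and 3207 over all tested genes. The trend of level with length differed between the ages (two-sided exact permutation test over 16 libraries, p = 0.00979). This trend was highest in the 3-month library 5 (0.0892), followed by the 3-month library 4 (0.0370). The part of the length trend in the counts was not tested.

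**Figure D1:**
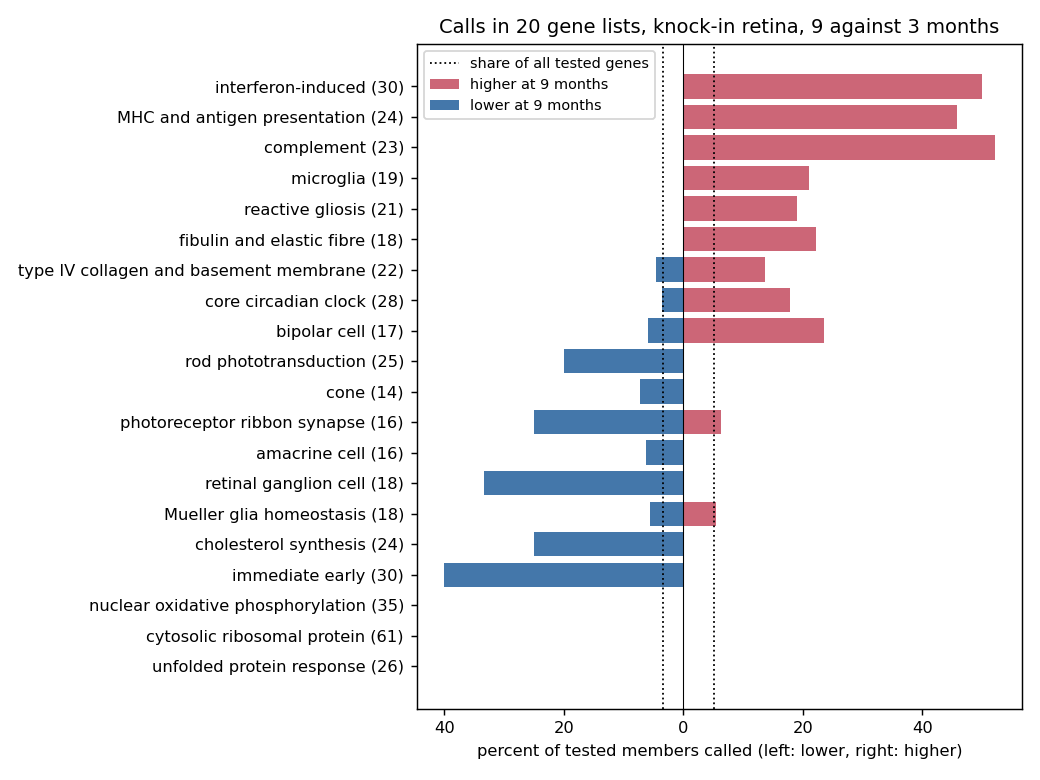
Percent of the tested members of 20 gene lists that were higher (right) or lower (left) at 9 months in the knock-in retina, with the number of tested members in parentheses and the share of all tested genes as dotted lines (5.12% higher, 3.38% lower). Complement (12 of 23), interferon-induced (15 of 30) and antigen presentation (11 of 24) extend farthest to the right, and immediate early genes (12 of 30) farthest to the left.

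The gene with the smallest p was Glb1l3 (ENSMUSG00000031966.7, chromosome 9, 26817953 to 26860890), a member of the beta-galactosidase family. Its libraries held 44.1–69.5 CPM (median 48.7) at 3 months and 83.3–103 CPM (median 89.6) at 9 months, so every 9-month library lay above every 3-month library (log2 fold change 0.83 ± 0.06, adjusted p = 2.50e-14). The libraries of 129 genes separated in this upward way (0.748% of those tested) and those of 89 in the downward way (0.516%). Hdc (ENSMUSG00000027360.5, chromosome 2, 126593667 to 126619299), encoding the histidine decarboxylase that makes histamine, rose from 32.1–38.8 CPM (median 37.1) to 47.3–70.3 CPM (median 62.5) (log2 fold change 0.76 ± 0.06, adjusted p = 1.80e-13). Smug1 (ENSMUSG00000036061.9, chromosome 15, 103153307 to 103158002), a uracil-DNA glycosylase of base excision repair, was the third. It measured 108–126 CPM (median 117) at 3 months and 147–185 CPM (median 169) at 9 months (log2 fold change 0.52 ± 0.05, adjusted p = 7.23e-11). None of the 9-month libraries overlapped with the 3-month ones for either gene. Rnf43, which encodes a ubiquitin ligase that removes Wnt receptors, climbed from 2.04–4.00 CPM (median 3.11) to 5.47–8.65 CPM (median 6.85), by 1.14 ± 0.11 on the log2 scale (adjusted p = 7.69e-11). Fndc1 (a fibronectin type III domain protein gene) gained 0.74 ± 0.07 and Amy1 (salivary amylase) 0.58 ± 0.06, with adjusted p-values of 3.11e-10 and 3.11e-10. All 8 of their 9-month libraries exceeded the highest 3-month library, as the plot of these 6 genes shows.

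**Figure D2:**
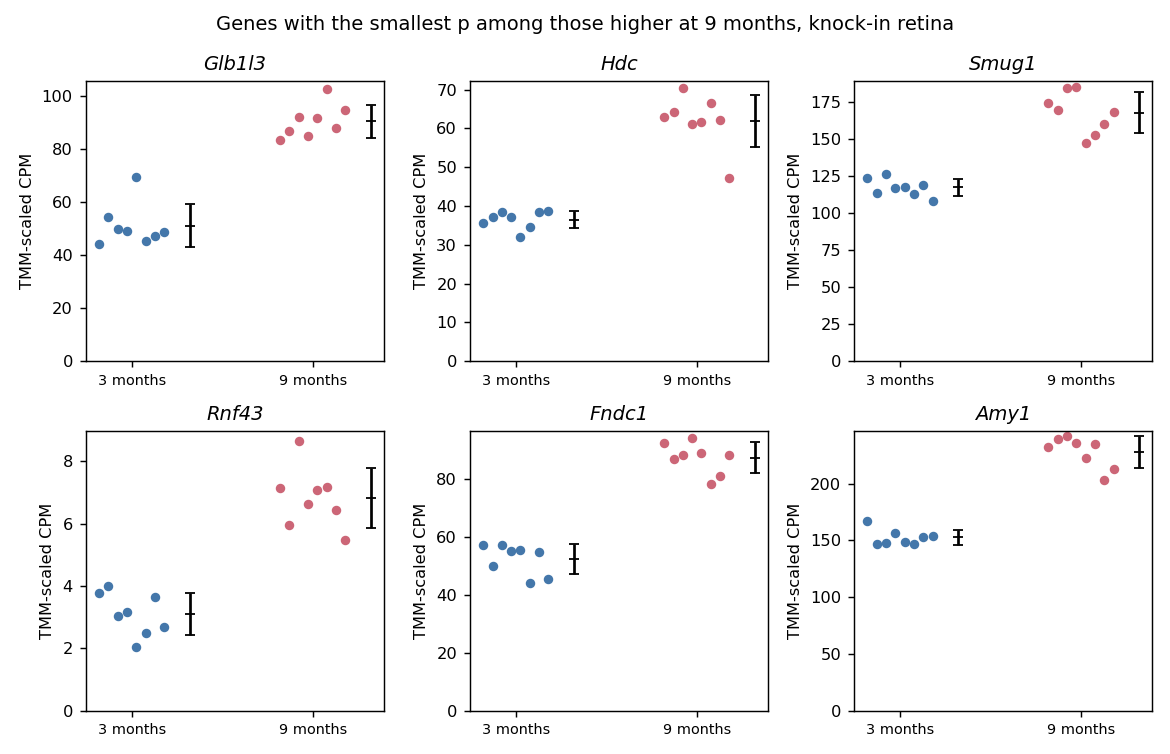
Levels (TMM-scaled CPM, linear axes from 0) of the 6 genes with the smallest p among those higher at 9 months, each point 1 knock-in retina library and the bar the mean ± SD of 8. The 3-month and 9-month points do not overlap for any of the 6, for example 44.1 to 69.5 against 83.3 to 103 CPM for Glb1l3.

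Other risers were expressed at low levels and moved farther. Rdh1, encoding a retinol dehydrogenase, stood at 0.684–2.40 CPM (median 1.37) at 3 months and 2.81–5.89 CPM (median 4.30) at 9 months, a log2 fold change of 1.57 ± 0.17 (adjusted p = 4.23e-09). Csrp3, a muscle LIM protein gene, and Tigd4, a gene derived from a transposase, gained 1.29 ± 0.14 and 1.25 ± 0.17 from medians of 3.15 and 0.985 CPM, and again no 9-month library overlapped with a 3-month one. Nod2, an intracellular sensor of bacterial cell wall fragments, went from 0.764–1.41 CPM (median 1.248) to 2.20–3.84 CPM (median 3.10) (log2 fold change 1.36 ± 0.20, adjusted p = 8.18e-06). Lyz2, the lysozyme of macrophages and microglia, held 1.96–6.07 CPM (median 4.95) at 3 months and 7.58–22.7 CPM (median 11.2) at 9 months (log2 fold change 1.43 ± 0.29, adjusted p = 0.00125). Agtr1a, an angiotensin receptor gene, gained 1.56 ± 0.32 at under 1.1 CPM (adjusted p = 9.30e-04). The keratin gene Krt7 had the largest fitted rise among the genes eligible to be named, 1.76 ± 0.50, but its range widened from 0.207–1.246 to 0.255–6.06 CPM and its call was lost without the 9-month library 2 or 8 or the 3-month library 6. The summed level of ocular surface epithelium genes, among them other keratins, ranged from 14.8 to 64.5 CPM at 3 months and from 16.6 to 130 CPM at 9 months, highest in that library 2, and its part in the Krt7 value was not tested. Slc37a2 (a sugar phosphate transporter gene), Alpk2 (an alpha-kinase gene), Clic6 (a chloride intracellular channel gene) and Pisd (the mitochondrial enzyme of phosphatidylethanolamine synthesis) gained 0.86, 0.66, 0.74 and 0.55, with no overlap between the ages for any of the 4. Amy1, Rdh1, Lyz2 and Pisd have close relatives in the genome, and reads shared with those could have been split in the authors' counting.

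Of 24 tested members of the MHC and antigen presentation list, 11 were higher at 9 months and none lower, and 22 had a positive sign. The list's median log2 fold change was 0.49, beside 0.003 over all tested genes. H2-K1 (ENSMUSG00000061232.15, chromosome 17, 33996017 to 34000333), a classical class I heavy chain gene, led with 28–33.1 CPM (median 29.2) at 3 months and 38.9–48.4 CPM (median 44.4) at 9 months (log2 fold change 0.56 ± 0.07, adjusted p = 1.69e-07). The ages did not overlap. Tap2, which encodes 1 subunit of the transporter that carries peptides into the endoplasmic reticulum, was raised from 9.49–14.2 CPM (median 13.3) to 15.9–20.7 CPM (median 17.5) (log2 fold change 0.49 ± 0.08, adjusted p = 1.20e-04). B2m, the light chain of all class I molecules, held 20.01–29.4 CPM (median 23.1) at 3 months and 24.8–44.2 CPM (median 35.8) at 9 months (log2 fold change 0.60 ± 0.11, adjusted p = 2.15e-04). Only its lowest 9-month libraries reached into the 3-month range.

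The immunoproteasome subunit gene Psmb8 (ENSMUSG00000024338.14, chromosome 17, 34197721 to 34201454) measured 2.46–2.97 CPM (median 2.63) at 3 months and 3.27–6.64 CPM (median 4.27) at 9 months (log2 fold change 0.73 ± 0.14, adjusted p = 4.64e-04), again with no overlap. Its neighbour Tap1 (ENSMUSG00000037321.17, chromosome 17, 34187553 to 34197225), the other transporter subunit, spread more widely at 9 months, 2.61–4.25 CPM (median 3.52) at 3 months and 3.15–9.81 CPM (median 5.99) at 9 months (log2 fold change 0.78 ± 0.16, adjusted p = 0.00140). Nlrc5, the transactivator of class I genes, rose by 1.06 ± 0.25 (adjusted p = 0.00523) from a median of 1.16 to 1.79 CPM, with 1 library at 5.26. The classical gene H2-D1 gained 0.32 ± 0.08, and the non-classical class I genes H2-T22, H2-T23, H2-Q4 and H2-Q6 gained 0.50, 0.65, 0.60 and 0.61. The H2-Q and H2-T genes are near copies of each other, so the reads of single members are uncertain. Leaving out single libraries gave counts of 10 to 12.

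Of 30 tested interferon-induced genes, 15 rose, none fell and all 30 had a positive sign, with a median log2 fold change of 0.73. Xaf1 (ENSMUSG00000040483.15, chromosome 11, 72301629 to 72313733), an apoptosis regulator induced by interferon, had the smallest p of the list. It measured 1.91–2.76 CPM (median 2.25) at 3 months and 2.38–8.53 CPM (median 4.05) at 9 months (log2 fold change 1.15 ± 0.23, adjusted p = 7.21e-04). Ifi27, a mitochondrial interferon-induced protein gene, went from 6.10–12.8 CPM (median 7.73) to 9.72–25.4 CPM (median 15) (log2 fold change 0.96 ± 0.20, adjusted p = 0.00177), and Oas2, a sensor of double-stranded RNA, from 0.483–1.17 CPM to 0.537–2.88 CPM (log2 fold change 0.99 ± 0.24, adjusted p = 0.00505). For all 3 genes the lowest 9-month libraries lay within the 3-month range and the highest lay far above it. Stat2, a transcription factor of the type I interferon response, rose by only 0.23 ± 0.06 at a median of 68.7 CPM (adjusted p = 0.0130). Among the effectors, Trim30a gained 1.28, Usp18 (a negative regulator that removes ISG15) 1.21, Bst2 (tetherin, which holds back budding virions) 1.12, the guanylate-binding protein genes Gbp3 and Gbp2 0.99 and 0.65, and Oasl2, Oas1b and Oas1a 0.88, 1.06 and 1.27. Ddx58 (RIG-I, a sensor of viral RNA), Lgals3bp (a galectin-binding protein gene) and Ifitm3 (a block to viral entry) gained 0.61, 0.72 and 0.64. Ddx58 was the 1 called member whose ages did not overlap. The Gbp, Oas1 and Trim30 genes belong to clusters of close relatives, so the split of reads among them is uncertain.

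The interferon-induced genes were uneven among the 9-month libraries. The summed level of the list ran from 257 to 312 CPM at 3 months. At 9 months it was 621 CPM in library 8, 480.5 in library 3 and 469 in library 4, and 291 to 348 in the other 5. The antigen presentation sum was highest in the same 3 libraries (354, 349.6 and 334 CPM) but above the 3-month maximum of 280.5 CPM in 6 of the 8. The pigment epithelium sum was also highest in libraries 8, 3 and 4, the last still inside the 3-month range (408, 351 and 216 CPM). All 18 tested pigment epithelium genes had a positive sign (median log2 fold change 0.42, 0 called), and Rpe65, the isomerase that defines that tissue, ranged from 1.96 to 7.54 CPM at 3 months and from 3.17 to 21.3 CPM at 9 months. With the means of the pigment epithelium and ocular surface lists as covariates, an alternative added after seeing the data, 12 interferon-induced and 10 antigen presentation genes were called higher, against 15 and 11 without them. Leaving out 9-month library 8 or library 3 reduced the 15 interferon calls to 7, and leaving out library 4 to 8, while with surrogate variables 2 were called (10 for antigen presentation). Lymphocyte genes were at 10.2 to 13.2 CPM at 3 months and 12.3 to 15 CPM at 9 months in sum. Only 4 of the 23 listed were tested, all 4 with a positive sign (median log2 fold change 0.26). None of them was called, and up to 1 was called higher in the fits that left out 1 library. In bulk tissue, more cells of a type and more RNA per cell cannot be told apart.

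**Figure D3:**
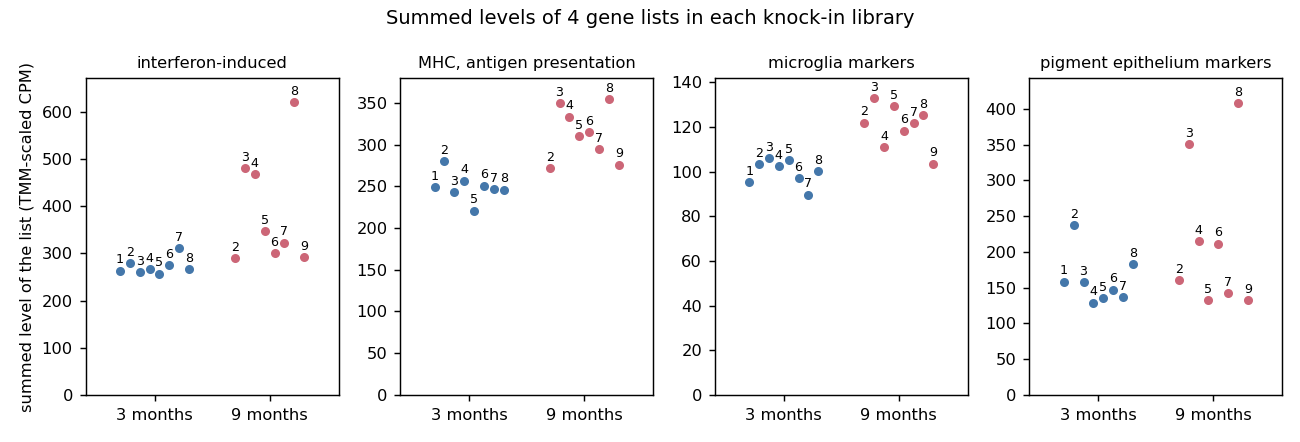
Summed level (TMM-scaled CPM, linear axes from 0) of 4 gene lists in each knock-in retina library, with the library number beside each point. At 9 months libraries 8, 3 and 4 hold the highest sums of the interferon-induced, antigen presentation and pigment epithelium lists, whereas the microglia sum is above the 3-month maximum of 106 CPM in 7 of the 8 libraries.

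The promoters of these genes are shown because the factors downstream of interferon bind a known element, the interferon-stimulated response element, searched here as TTTC, 2 bases of any kind and TTTC on both strands. It occurred in the 250 bases upstream of 978 of 32851 RefSeq start sites (2.98%). Of the 15 interferon-induced genes that rose, 11 had a RefSeq promoter entry and 6 of these held the element, as did 3 of the 9 antigen presentation genes with an entry out of 11 and 2 of 9 immediate early genes described further on. The windows below (RefSeq, GRCm38.p6, 5′ to 3′ on the gene's strand, ending at the base before the start) carry the match in capitals. Overlapping matches run together. Gbp3 and Trim30a each have a second start whose window held no match, and a match is a description of the letters, not of a bound site.
Gbp2, chr3:142620413-142620662, plus strand: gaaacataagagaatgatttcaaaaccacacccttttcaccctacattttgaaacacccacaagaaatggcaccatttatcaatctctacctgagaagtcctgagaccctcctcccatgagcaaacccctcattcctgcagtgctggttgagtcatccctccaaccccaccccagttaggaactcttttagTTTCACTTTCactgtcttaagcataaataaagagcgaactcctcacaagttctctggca
Gbp3, chr3:142559794-142560043, plus strand: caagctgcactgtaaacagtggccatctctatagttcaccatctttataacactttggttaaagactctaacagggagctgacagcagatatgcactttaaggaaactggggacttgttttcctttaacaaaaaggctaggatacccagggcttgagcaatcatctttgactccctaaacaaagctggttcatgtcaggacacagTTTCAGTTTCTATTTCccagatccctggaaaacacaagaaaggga
Oas1a, chr5:120907526-120907775, minus strand: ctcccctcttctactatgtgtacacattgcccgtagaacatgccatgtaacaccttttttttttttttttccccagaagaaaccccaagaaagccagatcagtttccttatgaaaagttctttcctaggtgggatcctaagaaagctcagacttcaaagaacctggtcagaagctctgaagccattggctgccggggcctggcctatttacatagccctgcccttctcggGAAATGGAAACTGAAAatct
Trim30a, chr7:104465194-104465443, minus strand: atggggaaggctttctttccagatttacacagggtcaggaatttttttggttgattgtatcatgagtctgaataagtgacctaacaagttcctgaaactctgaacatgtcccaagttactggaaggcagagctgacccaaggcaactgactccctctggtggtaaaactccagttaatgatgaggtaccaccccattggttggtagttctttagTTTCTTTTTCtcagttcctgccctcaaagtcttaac
B2m, chr2:122147437-122147686, plus strand: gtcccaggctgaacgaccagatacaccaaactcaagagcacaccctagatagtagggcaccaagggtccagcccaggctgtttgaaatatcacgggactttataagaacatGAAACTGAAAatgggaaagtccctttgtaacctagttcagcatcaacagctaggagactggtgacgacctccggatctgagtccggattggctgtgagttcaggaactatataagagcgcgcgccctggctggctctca
H2-T23, chr17:36032702-36032951, minus strand: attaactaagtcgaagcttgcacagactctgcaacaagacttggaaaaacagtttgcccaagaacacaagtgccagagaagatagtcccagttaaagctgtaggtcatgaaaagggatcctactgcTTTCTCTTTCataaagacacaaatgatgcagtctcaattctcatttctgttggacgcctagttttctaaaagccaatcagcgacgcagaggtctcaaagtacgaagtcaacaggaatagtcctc
The element began 59, 45, 20 and 36 bases upstream of the start in Gbp2, Gbp3, Oas1a and Trim30a, which encode antiviral effectors, and 139 and 124 bases upstream in the class I genes B2m and H2-T23.

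Of 23 tested complement genes, 12 were higher and none lower (median log2 fold change 0.37, 21 with a positive sign), and leaving out single libraries gave 10 to 12. With surrogate variables 2 were called higher. C4b (ENSMUSG00000073418.4, chromosome 17, 34728380 to 34743882), which encodes complement component C4, held 17.9–23.2 CPM (median 19.7) at 3 months and 19.4–59.2 CPM (median 39.1) at 9 months (log2 fold change 0.99 ± 0.18, adjusted p = 2.28e-04), and 7 of 8 libraries at 9 months exceeded the 3-month median. C4b has a near-identical copy, C4a, which gained 0.30 ± 0.13 without passing (adjusted p = 0.156), so the split between them is uncertain. The 3 chains of C1q, the recognition molecule, rose together. C1qa changed by 0.45 ± 0.11, C1qb by 0.66 ± 0.13 and C1qc by 0.45 ± 0.12 (adjusted p = 0.00627, 7.40e-04 and 0.0121), from medians of 5.11, 4.83 and 4.37 CPM. The C1 protease genes C1s1 and C1ra, whose products act in turn to cleave C4, gained 0.72 ± 0.16 and 0.72 ± 0.18, and C1rl, a relative of C1r, 0.65 ± 0.19. C1s1 was the 1 complement gene whose ages did not overlap (1.64–2.44 CPM (median 1.99) at 3 months and 2.61–4.73 CPM (median 3.19) at 9 months).

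C3, on which all 3 pathways converge, rose from 2.07–4.35 CPM (median 3.11) to 3.83–8.28 CPM (median 5.67) (log2 fold change 0.84 ± 0.22, adjusted p = 0.0100), and Masp2, a protease gene of the lectin pathway, by 0.76 ± 0.19 (adjusted p = 0.00653). Not all risers activate the cascade. Cfp (properdin) stabilises the alternative convertase and gained 0.34 ± 0.09, whereas Serping1 (the C1 inhibitor) and Cd46 (a membrane regulator that helps degrade C3b) hold it back and gained 0.37 ± 0.11 and 0.30 ± 0.09. Adjusted p-values for these 3 were 0.0142, 0.0343 and 0.0237, and the calls of Serping1 and Cd46 were lost in 7 and 4 of the 16 fits that each left out 1 library.

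The microglia list had fewer calls but a uniform sign. Of 19 tested genes 4 rose, none fell, all 19 were positive and the median was 0.34. The 4 were Ctss (cathepsin S, a lysosomal protease) and the 3 C1q genes already given, which are on both lists. Ctss measured 9.50–11.6 CPM (median 10.7) at 3 months and 11.0–17.7 CPM (median 15.2) at 9 months (log2 fold change 0.46 ± 0.09, adjusted p = 3.88e-04). The summed level of the microglia genes was 89.7 to 106 CPM at 3 months and 104 to 133 CPM at 9 months, with only library 9 inside the 3-month range, and with surrogate variables 2 of the list were called. Of 21 reactive gliosis genes 4 rose (median 0.21): C3, A2m (a protease inhibitor, 0.59 ± 0.17, adjusted p = 0.0261), Stat3 (the transcription factor of glial reactivity, 0.12 ± 0.04, 0.0344) and Nupr1 (a stress-induced nuclear protein, 0.54 ± 0.17, 0.0387). This count was 2 without the 9-month library 3, 4, 6 or 8 or the 3-month library 6. Gfap, the usual marker of reactive Müller glia and given here although it was not called, held 10.6–17.0 CPM (median 11.7) at 3 months and 8.97–18.5 CPM (median 14.2) at 9 months (adjusted p = 0.582). Of 11 NF-kB and cytokine genes, Icam1 (an adhesion molecule for leukocytes) rose by 0.82 ± 0.17 (adjusted p = 0.00104) and Tnfaip3 (A20, which ends NF-kB signalling) fell by 0.12 (adjusted p = 0.0325), the latter lost without the 9-month library 3 or 5 or the 3-month library 4, 5 or 6.

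Of 30 tested immediate early genes, 12 fell and none rose (median log2 fold change -0.25), 6 had a positive sign, and 11 to 13 fell in the fits that left out single libraries. Egr1 and Fos were among the 3 largest falls of all called genes. Egr1, a zinc finger transcription factor, dropped from 42.8–103 CPM (median 71.4) to 8.17–19.5 CPM (median 13.4) (log2 fold change -2.48 ± 0.39, adjusted p = 4.05e-05). Fos (ENSMUSG00000021250.13, chromosome 12, 85473890 to 85477273), the partner of Jun in the AP-1 dimer, dropped from 22–47.4 CPM (median 31.9) to 7.65–14.7 CPM (median 11.9) (log2 fold change -1.55 ± 0.24, adjusted p = 2.27e-05). Sik1 (ENSMUSG00000024042.6, chromosome 17, 31844248 to 31855792), a kinase gene induced by cyclic AMP, went from 14.9–19.8 CPM (median 16) to 8.21–12.5 CPM (median 10.4) (log2 fold change -0.70 ± 0.11, adjusted p = 2.25e-05). In these 3 genes the highest 9-month library lay below the lowest 3-month library. Nr4a1 (ENSMUSG00000023034.6, chromosome 15, 101266846 to 101274792), an orphan nuclear receptor gene, held 27.2–54.6 CPM (median 39.0) at 3 months and 17.8–29.4 CPM (median 22.5) at 9 months (log2 fold change -0.85 ± 0.14, adjusted p = 7.60e-05), so its ages just overlapped.

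The AP-1 genes Junb, Fosl2 and Jun fell by 0.55, 0.38 and 0.30 on the log2 scale, Egr4 by 1.28, and the genes for the phosphatase Dusp1, the antiproliferative factor Btg2, the small nuclear protein Ier2 and the zinc finger factor Klf6 by 0.59, 0.28, 0.45 and 0.22. Dusp1 measured 20.1–27.2 CPM (median 22.9) at 3 months and 14.2–18.7 CPM (median 15.1) at 9 months and Btg2 94.1–110.4 CPM (median 104) at 3 months and 77.1–88.3 CPM (median 85.3) at 9 months, and neither overlapped between the ages. The summed level of the 31 listed genes was 530 to 701 CPM at 3 months and 431 to 497 CPM at 9 months, without overlap. Between 9 and 17 months, a step that shares the 9-month libraries, 13 of the 30 rose and none fell. Of all tested genes 2.23% rose and 1.3% fell in that step. Egr1 then measured 30.6–84.4 CPM (median 49.2) and Fos 16.4–37.5 CPM (median 23.8), as the plot of these genes by library shows. These genes respond within minutes to light and handling, and the time of day or the light state of each mouse was not given in the sources used here.

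**Figure D4:**
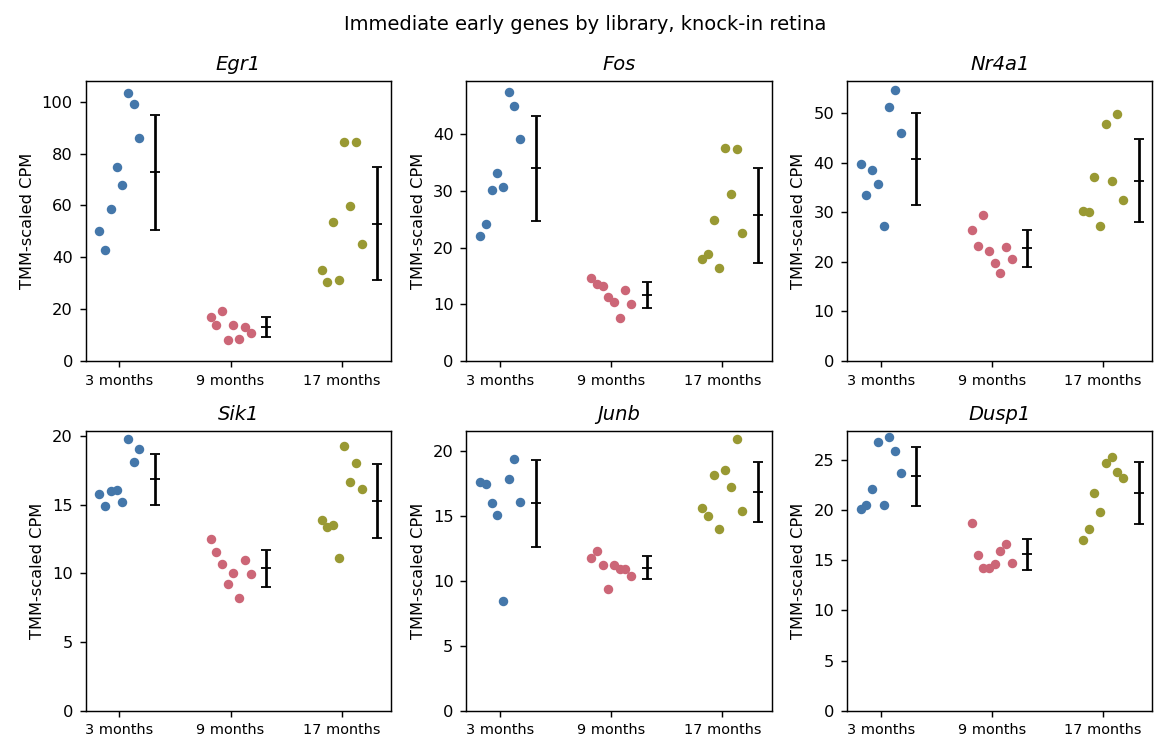
Levels (TMM-scaled CPM, linear axes from 0) of 6 immediate early genes in each knock-in retina library at 3, 9 and 17 months, with mean ± SD of 8 libraries. The 9-month points of Egr1 (8.17 to 19.5 CPM), Fos (7.65 to 14.7), Sik1 (8.21 to 12.5) and Dusp1 (14.2 to 18.7) lie below all 3-month points, and the 17-month medians of these 4 genes lie above their 9-month medians.

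Activity-dependent transcription is known to run through the cyclic AMP response element TGACGTCA, which was found upstream of 508 of the 32851 start sites (1.55%, same window, both strands). Of the 12 immediate early genes that fell 9 had a promoter entry, and the exact element was in 2 of them. Among the 10 motifs searched, the EGR site GCGGGGGCG (2.57% of all start sites), the E-box CACGTG (6.02%) and the interferon element (2.98%) were each also in 2 of the 9, so the count was no higher than for these. The cyclic AMP element is shown in Dusp1 and Btg2, with the match in capitals below.
Dusp1, chr17:26508473-26508722, minus strand: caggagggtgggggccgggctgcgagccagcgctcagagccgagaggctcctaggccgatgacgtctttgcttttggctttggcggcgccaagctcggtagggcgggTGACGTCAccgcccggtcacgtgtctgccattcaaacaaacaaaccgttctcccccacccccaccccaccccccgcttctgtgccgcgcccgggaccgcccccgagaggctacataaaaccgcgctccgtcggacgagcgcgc
Btg2, chr1:134079156-134079405, minus strand: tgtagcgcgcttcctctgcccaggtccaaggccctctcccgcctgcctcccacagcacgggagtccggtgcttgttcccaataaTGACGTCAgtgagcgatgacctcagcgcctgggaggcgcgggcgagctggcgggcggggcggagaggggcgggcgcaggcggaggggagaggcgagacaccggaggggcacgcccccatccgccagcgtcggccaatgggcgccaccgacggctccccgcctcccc
Shorter or diverged forms of the element were not searched.

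Among the other fallers, Prdm1 (Blimp1, a repressor that guides photoreceptor against bipolar fate) went from 17.7–20.1 CPM (median 19.0) to 11.4–15.6 CPM (median 13.0) (log2 fold change -0.54 ± 0.09, adjusted p = 2.27e-05), with no overlap, and Sox4, a factor of neuronal differentiation, from 13.4–19.0 CPM (median 17.3) to 10.5–13.9 CPM (median 11.9) (log2 fold change -0.52 ± 0.07, adjusted p = 2.37e-06). Both are developmental regulators. Tmem26, a transmembrane protein gene, fell by 1.27 to a median of 0.546 CPM (adjusted p = 1.66e-04), and Otop3 (a proton channel gene), Ubxn10 (a cilium gene), Dnaic2 (an axonemal dynein gene) and Il9r (a cytokine receptor gene) by 0.71, 0.64, 0.57 and 0.62 on the log2 scale. Gulp1, an adaptor gene of phagocytosis, held 15.2–22.2 CPM (median 18.8) at 3 months and 9.89–16.8 CPM (median 11.7) at 9 months (log2 fold change -0.58 ± 0.13, adjusted p = 0.00250). Cdc34b (a ubiquitin-conjugating enzyme gene) fell by 0.90.

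Transcripts of the basement membrane rose in 1 branch of the type IV collagen family. Of 22 genes tested 3 rose and 1 fell (median 0.11). The risers were the 3 chains that assemble into the mature network of several adult basement membranes. Col4a3 (ENSMUSG00000079465.8, chromosome 1, 82586921 to 82722059) measured 45.9–59.9 CPM (median 53.9) at 3 months and 63.2–101 CPM (median 88.3) at 9 months (log2 fold change 0.65 ± 0.10, adjusted p = 2.09e-05). Its neighbour on the opposite strand, Col4a4 (ENSMUSG00000067158.9, chromosome 1, 82448423 to 82586849), measured 29.5–35.3 CPM (median 33.7) at 3 months and 36.0–54.7 CPM (median 50.3) at 9 months (log2 fold change 0.55 ± 0.07, adjusted p = 5.01e-07). Neither overlapped between the ages. Col4a5 gained 0.31 ± 0.07 (adjusted p = 0.00458), and Sparc, a matricellular protein gene on the same list, dropped by 0.22 (adjusted p = 0.00433). The 3 rises grew to 6 without the 9-month library 7 and to 5 without the 3-month library 1. In the fibulin and elastic fibre list, which includes Efemp1, 4 of 18 rose and none fell (median 0.06): Eln (tropoelastin, 0.44 ± 0.08, adjusted p = 3.24e-04), Fbln5 (fibulin-5, 0.61 ± 0.15, 0.00490), Efemp2 (fibulin-4, 0.26 ± 0.07, 0.0175) and Ltbp3 (a latent TGF-beta binding protein gene, 0.24 ± 0.07, 0.0352). Eln stood at 10.5–15.5 CPM (median 13.6) at 3 months and 15.1–20.2 CPM (median 18.2) at 9 months. The count was 2 without the 3-month library 5 or 8, which ended the calls of Efemp2 and Ltbp3, and Ltbp3 lost its call in 11 of the 16 fits that left out 1 library.

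Among the lists of neuronal classes, that of ganglion cells had the largest share of fallers. Of 18 tested 6 fell, none rose and 17 had a negative sign (median -0.16). Slc17a6 (ENSMUSG00000030500.6, chromosome 7, 51622006 to 51671119), the vesicular glutamate transporter of ganglion cells, dropped from 68.9–88.0 CPM (median 76.2) to 57.7–67.0 CPM (median 60.9), without overlap (log2 fold change -0.32 ± 0.06, adjusted p = 9.25e-04). The neurofilament genes Nefl, Nefm and Nefh fell by 0.25, 0.20 and 0.23 on the log2 scale, and the transcription factor genes Pou4f1 and Pou4f2 by 0.24 and 0.25. The call of Pou4f1 held in all 16 fits that left out 1 library, and that of Pou4f2 was lost in 11 of them. Nefl, the most abundant of these, measured 389–482 CPM (median 452) at 3 months and 333–409.7 CPM (median 382) at 9 months (log2 fold change -0.25 ± 0.05, adjusted p = 0.00130). Without the 9-month library 4 the count was 3, and with surrogate variables it was 2. Of 16 tested amacrine cell genes 1 fell, none rose and 2 had a positive sign (median -0.12). The share called was 6.25%, beside 8.49% of all tested genes. From 1 to 4 amacrine genes fell in the fits that left out 1 library, and 8 fell in wild type.

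Of 25 rod genes, 5 fell and none rose (median -0.07). Nrl, the factor that sets rod fate, held 1511–1728 CPM (median 1591) at 3 months and 1388–1504 CPM (median 1429.5) at 9 months (log2 fold change -0.15 ± 0.04, adjusted p = 0.0135). Rcvrn, which encodes the calcium sensor recoverin, dropped from 908–1054 CPM (median 939) to 745–849 CPM (median 815) (log2 fold change -0.23 ± 0.06, adjusted p = 0.00738). The ages did not overlap for Rcvrn and Nrl. Gnb1 and Pde6a, for a transducin and a phosphodiesterase subunit, fell by 0.17 and 0.17 on the log2 scale. The number that fell ranged from 0, in a fit that held the mean of this same list as a covariate, to 9 under the other settings, and 1 rod gene rose with surrogate variables. Among 14 cone genes only Thrb (a thyroid hormone receptor gene) was called, lower by 0.23, a share (7.14%) below the 8.49% of all tested genes. Arr3 (cone arrestin), although not called, held 222–294 CPM (median 269) at 3 months and 281–362 CPM (median 302) at 9 months (adjusted p = 0.0549).

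At the photoreceptor synapse 4 of 16 genes fell and 1 rose (median -0.03). Egflam (pikachurin, which aligns bipolar dendrites with the ribbon) dropped from 232–274 CPM (median 251) to 213–232 CPM (median 217), without overlap (log2 fold change -0.19 ± 0.04, adjusted p = 0.00116). Its receptor Dag1 (dystroglycan) fell by 0.11, Lrit1 (a photoreceptor synapse gene) by 0.17 and Syt1 (the calcium sensor of release) by 0.14. The rise was that of Cacna1f, the calcium channel of the ribbon, by 0.19 ± 0.05 (adjusted p = 0.00734). The 4 falls became 2 without the 9-month library 2, 3 or 4 or the 3-month library 6 or 8.

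Of 17 bipolar cell genes 4 rose and 1 fell (median 0.06). Pcp2, a G protein modulator of ON bipolar cells, was the clearest, with 20.4–40.6 CPM (median 34.2) at 3 months and 40.8–53.5 CPM (median 44.1) at 9 months and no overlap (log2 fold change 0.47 ± 0.10, adjusted p = 0.00220). Grm6 and Trpm1, the glutamate receptor and the cation channel of the ON response, gained 0.20 ± 0.06 and 0.20 ± 0.06, Prdm8 (a bipolar cell factor) 0.16 ± 0.05, and Lrit3, which localises Trpm1, fell by 0.20. The call of Pcp2 held in all 16 fits that left out 1 library, whereas those of Grm6, Trpm1, Prdm8 and Lrit3 were lost in 6, 8, 8 and 8 of them. The count of rises was 1 without the 9-month library 2 or the 3-month library 4, 5 or 6 and 2 without the 9-month library 3, 6 or 8. None of 8 horizontal cell genes was called. Of 18 Müller glia genes Slc1a3 (the glutamate transporter GLAST) fell by 0.17 (adjusted p = 0.00305) and Hes5 (ENSMUSG00000048001.7, chromosome 4, 154960923 to 154962371), a Notch target that keeps glial and progenitor identity, rose from 6.30–11.8 CPM (median 9.04) to 11.1–17.1 CPM (median 14.0) (log2 fold change 0.63 ± 0.11, adjusted p = 1.08e-04). Hes5 was also the 1 call among 20 Notch pathway genes (median -0.01). The shares called were 11.1% for Müller glia and 5% for Notch, beside 8.49% of all tested genes.

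Of 24 sterol synthesis genes, 6 fell, none rose and 22 were negative (median -0.13). Insig1, the sterol sensor that retains SREBP, measured 107–143 CPM (median 127) at 3 months and 95.8–113 CPM (median 104) at 9 months (log2 fold change -0.27 ± 0.05, adjusted p = 1.49e-04). Hmgcs1 (HMG-CoA synthase), Stard4 (a sterol carrier) and Dhcr7 (the last reductase) fell by 0.28, 0.31 and 0.16. All 6 had every 9-month library below the 3-month median. Of 28 clock genes 5 rose and 1 fell (median 0.00). Among them Per2 and Per3, repressors of the oscillator, gained 0.37 ± 0.08 and 0.26 ± 0.06, Arntl2 (a paralogue of Arntl) 0.37 ± 0.11 and Ciart (a repressor) 0.27 ± 0.09, while Rorb (a nuclear receptor of rods and interneurons) fell by 0.23. With 1 library left out, the call of Ciart was lost in 11 of 16 fits and that of Rorb in 7, and Rorb had 1 low library at 9 months (198 CPM in library 9). The rises were 3 without the 9-month library 2 or the 3-month library 5 or 6, and the hours of collection were not given in the sources used here. In the Wnt list Wnt16 was the 1 of 28 called, higher by 0.83 ± 0.17 (adjusted p = 7.93e-04). That share (3.57%) was below the 8.49% of all tested genes. Among 23 endothelial genes Plvap (the fenestral diaphragm protein) and Vwf (von Willebrand factor) gained 0.41 ± 0.09 and 0.37 ± 0.10, and Kdr (a VEGF receptor) fell by 0.18, and 1 rise was called without the 9-month library 5.

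Several systems showed no call in edgeR at this threshold. None of 35 nuclear oxidative phosphorylation genes (median -0.02), 61 cytosolic ribosomal protein genes (-0.04), 27 lysosome and autophagy genes (median within 0.01 of 0), 26 unfolded protein response genes (-0.01), 16 p53 and senescence genes (-0.07), 9 mitochondrially encoded genes (0.01), 13 pericyte genes (0.03) or 21 matrix protease genes (-0.03) was called. Under single alternatives or without single libraries up to 4 genes of 1 of these lists passed.

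In the wild-type retina the same step in age gave more calls, 5297 of 17240 (30.7%), 2631 higher (15.3%) and 2666 lower (15.5%). The size of that excess depended on the fit. With DESeq2 5487 genes were called in wild type and 1655 in the knock-in, and with a GC offset 5721 and 2331. Surrogate variables gave 1765 and 764. With the library means of the pigment epithelium, lens and rod lists as covariates the numbers were 1027 and 996. The rod list itself had 14 of 25 genes lower in wild type, so that fit can take up part of the age step. In the main fit the higher share was 49.7% of the wild-type calls, but 79.0% on the log2(TPM + 1) scale. Of the 1464 knock-in calls, 1010 were called in the same direction in wild type, which is 69.0% of the knock-in and 19.1% of the wild-type calls, 2 in the opposite direction and 452 not. The 2 genotypes share no library in this comparison. Glb1l3 (0.89 in wild type), Hdc (0.57), Smug1 (0.57), Rnf43 (0.93), Rdh1 (1.57), Col4a3 (0.90) and Col4a4 (0.67) rose in wild type too, and Slc17a6 (-0.24) and Prdm1 (-0.42) fell.

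A call in one genotype and not in the other is no test of a difference, so the difference of the 2 changes was tested as an interaction. It passed for 3 genes (0.0174%), all with a lower change in the knock-in, while 2653 had an unadjusted p under 0.05. Other fits gave other numbers and another balance of signs: 353 genes with limma voom (50.1% of them with the higher change in the knock-in), 14 with DESeq2 (7 of them) and 194 with the replicate number as a block (33.0%). The block was added to a fit of only the groups compared, which gave 9 genes without it. Asun, a subunit gene of the Integrator complex, changed by 0.06 ± 0.04 in the knock-in and 0.37 ± 0.04 in wild type (adjusted p of the difference = 0.0281). The predicted gene Gm43681 changed by -0.12 ± 0.12 and 0.78 ± 0.12 (0.0281), and 3110035E14Rik by -0.36 ± 0.16 and 0.75 ± 0.16 (0.0466). None of the 3 was called in the knock-in itself. The number of such genes was 0 when any of the 9-month libraries 6, 7, 8 and 9 or the 3-month libraries 3, 5, 7 and 8 was left out.

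No gene of the lists described passed the interaction in the edgeR fit of all retina libraries. Their values in both genotypes are given side by side. The interferon list had 15 calls and a median of 0.73 in the knock-in, and 1 call (Stat2) and a median of 0.08 in wild type. The wild-type 3-month library 6 was high in Bst2 (8.11 CPM, against 2.00 to 2.78 in the rest of its group) and B2m (34.6, against 21.7 to 27.3). At 17 months the wild-type library 5 held 9.16 CPM of Bst2. No fit left out a wild-type library of 3 or 9 months, so the part of library 6 in the wild-type values was not tested. Xaf1 changed by -0.03 ± 0.22 in wild type (unadjusted p of the difference 5.59e-04, adjusted p = 0.162) and Tap1 by -0.08 ± 0.16 (4.39e-04, adjusted p = 0.162). Antigen presentation had 11 higher calls in the knock-in and 3 higher and 1 lower in wild type, with medians of 0.49 and 0.15. Complement had 12 against 5 higher and 1 lower, with medians of 0.37 and 0.26, and the immediate early list 12 against 6 lower, with medians of -0.25 and -0.17. Other lists had more calls in wild type. Of 61 cytosolic ribosomal protein genes none was called in the knock-in, and 47 were lower and 2 higher in wild type (medians -0.04 and -0.23). Of 35 nuclear oxidative phosphorylation genes none was called in the knock-in and 26 were lower in wild type (medians -0.02 and -0.15). The trend of level with GC content ran from -0.029 to 0.094 among the wild-type 3-month libraries and from -0.339 to 0.078 at 9 months. In the knock-in it ran from -0.338 to 0.053 and from -0.152 to 0.045. The part of this trend in the wild-type list counts was not tested. Rod genes had 5 against 14 lower (medians -0.07 and -0.14) and ganglion cell genes 6 against 10 (medians -0.16 and -0.18). Egr1 changed by -0.91 ± 0.41 in wild type (adjusted p of the difference = 0.213), Fos by -0.48 ± 0.25 (0.185) and Hes5 by -0.02 ± 0.11 (0.137). The plot of both genotypes shows the interferon-induced genes other than Stat2 above the line of equal change and the type IV collagen genes on both sides of it.

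**Figure D5:**
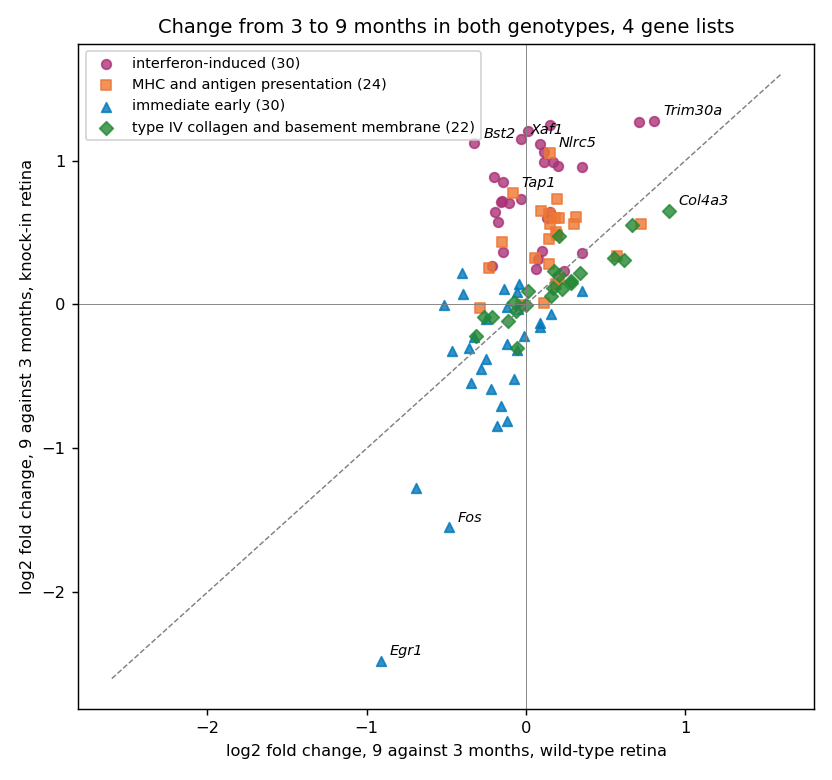
Log2 fold change from 3 to 9 months in the wild-type (horizontal) and the knock-in retina (vertical) for the tested members of 4 gene lists, with the line of equal change dashed. All 30 interferon-induced genes lie above 0 on the vertical axis, Egr1 and Fos lie lowest (-2.48 and -1.55), and no gene shown passed the test of the difference.

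From 9 to 17 months 609 genes changed in the knock-in (3.53%), 385 higher (2.23%) and 224 lower (1.3%). The higher share was 63.2% of the calls (84.6% on the log2(TPM + 1) scale, 74.8% with a GC offset and 52.1% without the libraries of extreme GC trend). That step and the one before share the 9-month libraries, so their values are only set side by side. C4b gained 1.07 ± 0.16 more (adjusted p = 6.10e-05), C3 0.87 ± 0.19 (0.00628), C1qa 0.52 ± 0.10 (0.00216) and C1qc 0.51 ± 0.11 (0.00450). The interferon list, with 15 calls in the first step, had none in the second (median 0.22). H2-K1 gained 0.40 ± 0.07 and Rnf43 0.55 ± 0.10, both called, while Glb1l3 changed by 0.18 ± 0.06 and Hdc by 0.19 ± 0.06, which were not. Of the immediate early genes Egr1 changed by 2.02 ± 0.39 and Fos by 1.14 ± 0.23. Gulp1 fell by 0.66 again and Prdm1 by 0.50.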

How the data were processed

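RNA of 16 knock-in retina libraries (8 at 3 months and 8 at 9 months) was measured by RNA-seq and analysed within a fit of all 48 retina libraries in 6 groups. Per the labels' protocols, RNA from RNeasy micro columns with DNase went into TruSeq Stranded mRNA libraries. The authors deposited estimated counts per gene and library, on build GRCm38.p4 per the submitters' processing notes, and these were rounded to whole numbers. The aligner, the counting tool and its strand setting are, like the annotation, not given in the sources used here. TPM values that the authors deposited beside them were treated as a score because their sum over protein-coding genes, not over all genes, is fixed. They were used only for an alternative, with a pseudocount of 1. Each deposited table held 1 column of per-sample values that matched no label, and it was not used.

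Counts were tested with edgeR 4.0.16 (R 4.3.3, TMM factors, filterByExpr, robust quasi-likelihood, Benjamini-Hochberg over 17240 genes, called at an adjusted p under 0.05), with contrasts for the step from 3 to 9 months in each genotype, for their difference, and for the step from 9 to 17 months. A fold change is log2 ± its standard error. Levels are TMM-scaled CPM, given as lowest, highest and median of the 8 libraries of a group. DESeq2 1.42.0, limma 3.58.1 and sva 3.50.0 served the alternatives. On simulated counts with 17240 genes for the 9 against 3 month comparison, 66% of genes changed 1.25-fold, 82% changed 1.5-fold and 98% changed 2-fold were called. Of 183 calls in the simulation 10 were false. Its counts were drawn gene by gene, without trends or tissue traces shared across a library, so these shares may not hold in the real libraries. RefSeq promoter windows are of GRCm38.p6.

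The comparison, the gene lists and the tests were chosen with earlier results of these data known. Genes were named by a rule: Efemp1 and Cfb, then, from the called genes whose log2 CPM averaged 0 or more, the 15 risers and 15 fallers of smallest p that moved by 0.5 or more on the log2 scale, and the 5 that rose and the 5 that fell most, and in each list every called member and those of smallest p. From these, a selection is printed, and a few genes of the lists are not reported here. Gfap, Arr3, C4a and the genes of the libraries paragraph were named outside it, after their values were seen. Replicate numbers were checked as a possible pairing: of 7 shared numbers, same-numbered libraries deviated together with correlations of -0.146 to 0.182, over 0.1 in 1, so no pairing was used.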

Additional observations from a re-analysis of the deposited data

Results flagged for a closer look

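The interaction separated 3 genes, whose change in the knock-in minus that in wild type was -0.307 for Asun, -0.905 for Gm43681 and -1.11 for 3110035E14Rik on the log2 scale. The test of the difference itself set these apart.

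Of 294 groups of 8 libraries checked for a sample far from the others, 28 (9.52%) held one, and chance gives about 1 in 20. The 3-month library 5 accounted for 12 of them. In CPM, it was high in Glb1l3 (69.5, next library 54.2), Klf6 (34.1) and Slc1a3 (275), and low in H2-D1 (34.1), Jun (36.1), Junb (8.43), Ltbp3 (48.9), Otop3 (2.66), Pcp2 (20.4), Plvap (5.23), Sox4 (13.4) and Tap2 (9.49). The same library stood apart in its GC trend. The 3-month library 4 was high in Gbp3 (6.22 CPM) and low in Lyz2 (1.96) and Trim30a (0.764). Among the other 3-month libraries, library 3 was low in Dnaic2 (3.01 CPM), library 2 high in Rcvrn (1050), and library 7 high in the summed interferon-induced genes (312).

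At 9 months library 9 was low in Csrp3 (6.36 CPM), Hdc (47.3) and Rorb (198), and library 5 was high in Vwf (18) and low in Yif1a (16.8). Library 2 was low in Agtr1a (0.307 CPM), library 3 in Klf6 (21.1) and library 7 in Zfp418 (4.07). Library 4 was high in Tnfaip3 (410 CPM), and library 6 in the summed lens crystallin genes (1280).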

How the results depend on the processing

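Of the 139 named genes, none that was called in the main fit changed direction under any setting that gave it a value. Changes of sign in named genes that were not called were not counted. Single libraries left out ended the calls of 3 to 24 of the 139, most without the 9-month library 3. Surrogate variables ended 55. The 1464 calls of the step from 3 to 9 months became 2468 with limma voom, 2254 on log2(TPM + 1), 2331 with a GC offset and 764 with surrogate variables, and 967 to 1773 without single libraries (fewest without the 3-month library 6, most without the 3-month library 1). In wild type 5297 became 1765 with surrogate variables and 1027 with composition covariates, the library means of the pigment epithelium, lens and rod lists. The 609 calls from 9 to 17 months became 1053 in a fit of only the groups compared, 1262 with voom, 1459 on log2(TPM + 1), 1092 without the 3 libraries of extreme GC trend and 1068 with pigment epithelium and ocular surface covariates. The 3 genes of the interaction became 9 in the groups compared, 353 with voom, 14 with DESeq2 and 12 with surrogate variables, and 0 to 4 without single libraries. They became 0 without the filter (3307 at an unadjusted p under 0.05), on log2(TPM + 1) (2107), with composition covariates (1053), a GC offset (2236) or pigment epithelium and surface covariates (1863), and without the lens-rich libraries (2261). The cause was not tested. GC trend, GC offset, pigment epithelium with surface covariates and lens-rich libraries were settings added after seeing the data.

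With the replicate number as a block, 2064 genes were called in the knock-in, 1181 of them also in the main fit. In wild type 5250 were called, from 9 to 17 months 499 and in the interaction 194. The block was added to fits of only the groups compared, which without it gave 1420, 4783, 1053 and 9. Only 2 of the 9-month libraries correlated best with their own number, a check that cannot exclude a pairing.

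Depth limits the low genes: below about 1 CPM a library of 9218127 counts holds few reads.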
